A study of Mus musculus with 15 samples.

Results

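The T-cell receptor alpha chains of CD8+ T cells sorted from 5 prostate tumours were compared with those of naive CD8+ T cells from spleen and lymph nodes. The comparison takes every Tumour and every Naive list of the series, 10 of 15 samples. The remaining 5 hold memory-phenotype (MP) cells and are used here only as values beside named chains. All mice were C57BL/6 males with 1 transgenic TCR beta chain in common (TCRbtg), so that receptors differ in the alpha chain. Naive cells were CD8b+ CD4neg CD44lo CD122neg and came from 5 different mice of 9 weeks, from the pooled spleen and several lymph nodes of each. Tumour cells were CD8b+ CD4neg, with no gate on CD44 or CD122, and came from microdissected and digested prostate lobes of 5 TRAMP+/- TCRbtg mice of 27 weeks. The TRAMP transgene drives the SV40 tumour antigens from the probasin promoter in prostate epithelium, and the mice develop prostate tumours with age. Tissue, age, genotype and sort gate all differ between the groups and cannot be told apart. Library submission, inferred from order numbers and not from the labels, appears to differ as well and cannot be told apart from these. The number of sorted cells is not given in the sources used here, so that fewer cells in a sort and less RNA per cell cannot be told apart from a narrower repertoire.

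Each list gives CDR3 peptides of the alpha chain with the number of sequencing reads for each. The CDR3 is the loop of the receptor that spans the join between a variable (TRAV) and a joining (TRAJ) segment. It lies over the peptide held by the MHC molecule. Bases trimmed and added at the join make most of the diversity, so a loop begins with residues from the variable segment, holds a junction of its own, and ends in residues of the joining segment. Naive T cells have not met antigen and carry a broad repertoire. Cells that have responded to antigen divide, and the loops of their clones then take large shares of the reads. Total reads were 627205 to 943699 per Tumour library and 547665 to 702663 per Naive library. Tumour libraries listed 934 to 2657 distinct CDR3s and Naive libraries 14914 to 29559, and no list held a CDR3 of fewer than 2 reads. A CDR3 that is not listed is taken as below 2 reads, although an unstated filter could also have removed it. The files hold no expressed genes by which the sorted cell type could be checked.

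The loops that led the libraries are shown first, because each group turned out to have leaders of its own. Each Tumour library had a leader of its own, whereas the same loop led all 5 Naive libraries. The Tumour loops, with the joining segment read from their ends, were these.
Tumour 1, TRAJ26 end: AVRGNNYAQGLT
Tumour 2, TRAJ48 end: AARPPRYGNEKIT
Tumour 3, TRAJ48 end: AGRPPRYGNEKIT
Tumour 4, TRAJ9 end: ATASSNMGYKLT
Tumour 5, TRAJ57 end: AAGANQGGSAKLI
Naive 1 to 5, TRAJ21 end: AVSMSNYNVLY

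Beside these leaders, other loops recurred across tumours in families linked by steps of 1 residue. The leading members of the 4 largest families are shown, each family with 1 Naive loop. That Naive loop lies 1 substitution from the first Tumour loop of the family, or, for TRAJ21, is the Naive leader of the same joining end.
TRAJ34 end, Tumour: AASASNTNKVV, AASPSNTNKVV, AASAANTNKVV
TRAJ34 end, Naive: ALSASNTNKVV
TRAJ30 end, Tumour: AASATNAYKVI, AASRANAYKVI, AASAANAYKVI
TRAJ30 end, Naive: AASDTNAYKVI
TRAJ22 end, Tumour: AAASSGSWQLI, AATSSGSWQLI
TRAJ22 end, Naive: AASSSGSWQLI
TRAJ21 end, Tumour: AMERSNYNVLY, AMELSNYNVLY
TRAJ21 end, Naive: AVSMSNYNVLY

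Tumour repertoires were narrow. The most abundant CDR3 took 14.7%, 14.5%, 4.19%, 20.8% and 22.6% of reads in Tumour 1 to 5, and 2.32%, 1.83%, 2.37%, 1.98% and 1.86% in Naive 1 to 5. The groups did not overlap. The number of CDR3s that together held 50% of reads was 9, 19, 25, 8 and 8 in the tumours and 249, 260, 233, 264 and 244 in Naive cells. Thus at most 25 loops filled as much of a tumour sample as 233 or more did of a Naive sample. The 100 most abundant CDR3s held 82.9 ± 6.76% of Tumour reads and 36.7 ± 0.725% of Naive reads (SD, n = 5 each).

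Measures of diversity that weigh all loops gave the same order. At a common depth of 547665 reads, the tumours would list 1454, 2609, 931, 1470 and 926 distinct CDR3s, and Naive cells 29184, 14914, 27052, 24885 and 25668. Shannon entropy, which rises with the number and evenness of loops, was 6.48 ± 0.622 bits in Tumour and 11.28 ± 0.106 bits in Naive libraries. The inverse Simpson index, the number of equally abundant loops that would give the same chance of drawing a loop again, was 21.9, 28.0, 69.0, 14.2 and 14.5 in the tumours and 410, 444, 390, 434 and 407 in Naive cells. Tumour 3 was the least dominated of the tumours on this index and was still well below every Naive library. For each of the 6 measures every Tumour library lay on one side of every Naive library (adjusted exact two-sided permutation p = 0.00794 over 5 against 5 libraries). This is the smallest p that 252 assignments allow. Leaving out loops of fewer than 10 reads, or folding possible reading errors into their abundant neighbours, kept all 6 differences on the same side of the threshold.

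**Figure D1:**
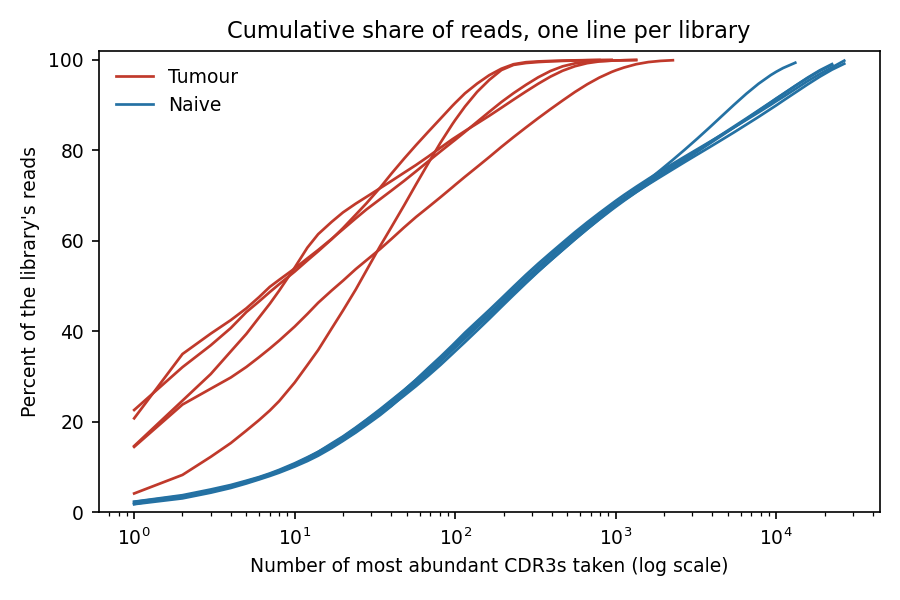
Cumulative percent of reads (vertical axis) against the number of most abundant CDR3s taken (horizontal axis, log scale), with one line per Tumour library (red) and per Naive library (blue). The 5 Naive lines lie nearly on top of each other and reach 36.7% of reads on average at 100 CDR3s, whereas the Tumour lines spread from each other and average 82.9% there.

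The Naive libraries were nearly copies of each other in their read shares, and the tumours were not. The Morisita-Horn index compares the shares of all loops in a pair of libraries, from 0 for no shared loop to 1 for equal shares. It was 0.973 ± 0.0109 over the 10 Naive pairs (SD over pairs, from 0.954 to 0.988) and 0.220 ± 0.166 over the 10 Tumour pairs (from 0.0484 to 0.497). The difference of -0.754 was as large as any assignment of the 10 libraries gave (exact two-sided permutation p = 0.00794). The most alike tumours were Tumour 2 and Tumour 4, at 0.497, followed by Tumour 2 and Tumour 3, at 0.476. The least alike were Tumour 4 and Tumour 5, at 0.0484.

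Tumour and Naive libraries had almost nothing in common by this index. Its mean was 0.00236 ± 0.00219 over the 25 pairs of a Tumour with a Naive library, with a highest value of 0.00675. Tumour 3 was the nearest to Naive cells, at a mean of 0.00634, and Tumour 4 and Tumour 5 were the farthest, at 0.000810 and 0.000799. All 10 Tumour pairs, even the least alike, were therefore above all 25 mixed pairs. The mean within groups exceeded the mean between groups by 0.594 (exact one-sided permutation p = 0.00794). The 5 tumours thus shared loops with each other that they did not share in comparable amounts with Naive cells. By the order numbers, all tumours came from 1 library submission and all Naive cells from another, which is an inference. A shared run therefore cannot be told apart from shared loops.

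**Figure D2:**
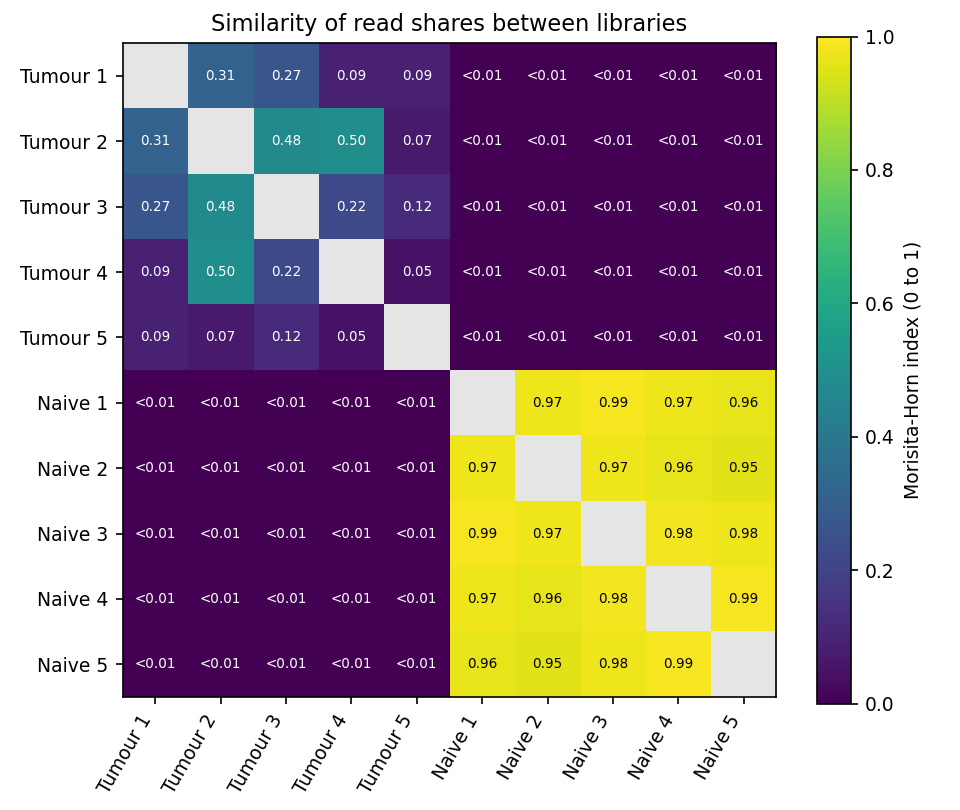
Morisita-Horn index of every pair of the 10 libraries, as a colour scale from 0 to 1 with the value printed in each cell. The Naive block lies at 0.954 to 0.988, the Tumour block at 0.0484 to 0.497, and every cell between the groups is below 0.01.

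The lists nevertheless overlapped when abundance was ignored. Of the distinct CDR3s of a tumour, 36.1 ± 5.23% were listed in at least 1 Naive library, and these loops held 61.0%, 58.1%, 62.7%, 39.0% and 72.2% of the reads of Tumour 1 to 5. In the other direction, 5.25 ± 0.717% of the distinct Naive CDR3s were listed in a tumour, with 26.0 ± 0.953% of Naive reads. The lists are of very unequal length, so that these shares are not compared with each other. The overlap rested in part on loops near the lowest listed count: with CDR3s of fewer than 10 reads left out of both lists, 25.9% of the distinct Tumour CDR3s and 35.9% of Tumour reads were listed in Naive cells. In the other direction the shares were then 7.36% of distinct loops and 24.4% of reads.

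What the tumours shared with Naive cells was the rare end of the Naive repertoire. The 10 loops with the highest mean share in Naive cells held 10.4 ± 0.311% of Naive reads and 0.0769%, 0.0976%, 0.212% and 0.0684% of the reads of Tumour 1 to 4. They had no reads in Tumour 5, where 3 reads would be 0.000318%. The Naive ranks 11 to 100 held 26.0% of Naive and 0.413 ± 0.143% of Tumour reads, and the ranks from there to 1000 held 30.8% and 3.20 ± 2.45%. By contrast, loops beyond rank 1000 held 32.8 ± 0.744% of Naive reads and 54.9 ± 11.8% of Tumour reads. A loop common in Naive cells was thus rare in the tumours, and the reads of the tumours lay in loops that were rare in, or absent from, the Naive lists. With the MP lists taken in, 46.2 ± 9.77% of Tumour reads lay in loops listed in both Naive and MP cells, 12.4 ± 2.80% in Naive alone, 8.22 ± 2.74% in MP alone and 33.2 ± 11.8% in neither.

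**Figure D3:**
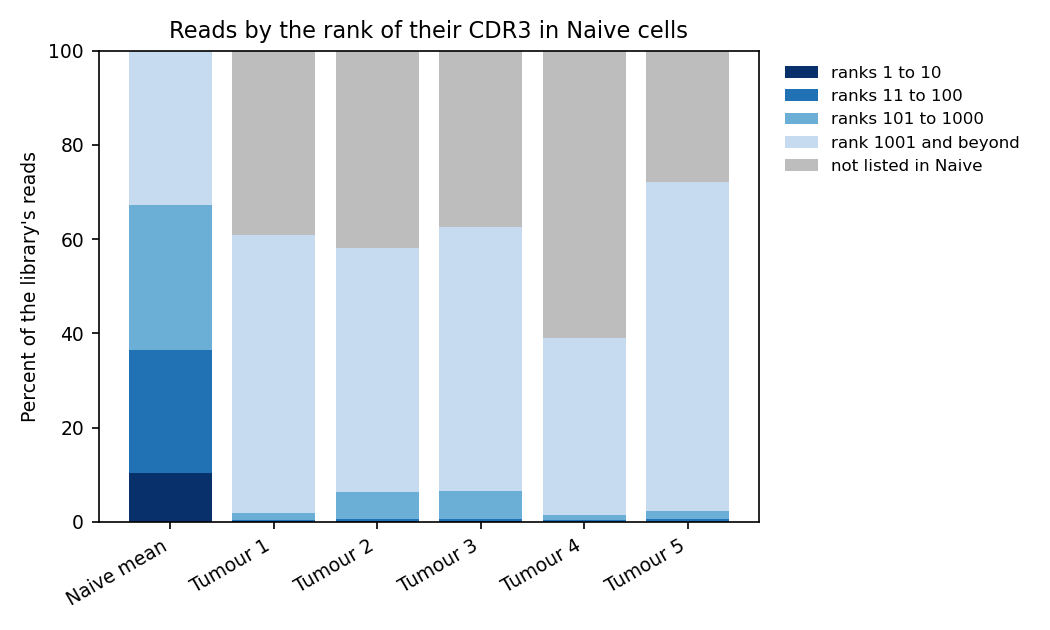
Percent of reads (vertical axis) by the rank of their CDR3 in the mean share of the Naive libraries, for the Naive mean and each Tumour library, with loops not listed in Naive cells in grey. The 3 dark bands of Naive ranks 1 to 1000 hold 10.4%, 26.0% and 30.8% of the Naive bar, and the widest of them in any Tumour bar holds 5.98%.

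A core of 113 CDR3s stood at 0.1% of reads or more in every Naive library. Together they held 38.2 ± 0.813% of Naive reads and 0.374%, 0.616%, 0.533%, 0.426% and 0.619% of the reads of Tumour 1 to 5. Of the 113, 41 were listed in any tumour and 6 reached 0.1% of reads in any. Those 6 did so in 1 tumour each: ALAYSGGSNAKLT (0.350%) and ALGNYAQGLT (0.102%) in Tumour 5, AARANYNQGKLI (0.321%) and AVRDTNAYKVI (0.212%) in Tumour 3, ALSDPTGYQNFY (0.169%) in Tumour 1 and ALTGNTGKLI (0.130%) in Tumour 2. No loop of the Naive core was therefore abundant in several tumours. The core was chosen on its level in Naive cells, and its Naive shares are a description.

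The leading Tumour loops mirrored this. The 10 most abundant loops of each tumour made 32 distinct CDR3s, of which 11 were listed in all 5 tumours, 18 in a Naive library, 17 in an MP library and 10 in neither. The highest mean share that any of the 32 reached in Naive cells was 0.0307%, for AAISSGSWQLI. Some leaders belonged to a single tumour. ATASSNMGYKLT took 20.8% of the reads of Tumour 4 and was listed in no other Tumour, Naive or MP library. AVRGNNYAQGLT took 14.7% of Tumour 1 and no reads in the other tumours, and had 10 reads over the 5 Naive libraries. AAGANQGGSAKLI took 22.6% of Tumour 5 and 0.000734% of Tumour 4, and had 34 Naive reads. These 3 loops, and AGRPPRYGNEKIT, at 4.19% of Tumour 3 and 0.000611% of Tumour 4, were not tested, because they did not reach 10 reads in 3 libraries.

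Each loop with at least 10 reads in at least 3 of the 10 libraries was tested, 4671 in all, with edgeR's quasi-likelihood test and Benjamini-Hochberg adjustment at 0.05. The loops tested held 57.7 ± 8.86% of Tumour reads and 80.5 ± 0.678% of Naive reads, so that private Tumour loops lie largely outside the test. Of the 4671, 158 (3.38%) were higher and 4051 (86.7%) lower in Tumour. Only 855 of the 4671, and 235 of the 4051 called lower, were listed in any tumour. Most loops called lower thus passed the count filter through Naive libraries alone. The share called lower therefore follows largely from the filter and the longer Naive lists, and is not a separate result. In Tumour libraries the 158 held 48.9 ± 6.83% of reads, against 0.109 ± 0.00834% in Naive libraries, and the 4051 held 0.179 ± 0.228% and 70.1 ± 0.646%. These sums describe loops chosen on the same libraries. Of the 158, 88 were listed in a Naive library, 82 in an MP library and 52 in all 5 tumours. Those in no Naive library passed the count filter through Tumour libraries alone. Among the 10 leading loops called higher, these are AARPPRYGNEKIT, AASASNTNKVV, AGGKEGKLI and AVRFGGGYKVV. Their calls follow in part from the filter, and their p-values are not separate support. The 158 were not all abundant: 16 stood at 0.1% of reads or more in all 5 tumours, 10 in 4, 13 in 3, 35 in 2, 36 in 1 and 48 in none.

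Among the loops called higher, AARPPRYGNEKIT had the largest mean share. It took 0.0109%, 14.5%, 3.04%, 14.2% and 0.148% of the reads of Tumour 1 to 5. It was listed in no Naive or MP library and was at least 12700-fold higher than the floor of 3 reads per Naive library (edgeR adjusted p = 0.00266). With no Naive reads, the loop passed the count filter through Tumour libraries alone, so this p is not separate support. Tumour 2 and Tumour 4 thus shared the same loop at nearly the same share, Tumour 3 carried less of it, and Tumour 1 and Tumour 5 held little. In Tumour 3 the loop stood beside AGRPPRYGNEKIT, which differs from it in the second residue alone and was listed there at 4.19%. No molecular identifiers are named in the labels, so the floors used here cover counting error only and reads of a loop are not independent molecules.

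AASASNTNKVV was high in every tumour. It took 3.62%, 3.51%, 3.99%, 4.50% and 2.35% of the reads of Tumour 1 to 5, ranked among the 10 most abundant loops of every tumour, and was listed in no Naive library. It was at least 7156-fold higher in Tumour (edgeR adjusted p = 3.14e-05), and 1 MP library listed it, at 0.00453% of reads. AASATNAYKVI, with a TRAJ30 end, took 1.39%, 2.33%, 2.32%, 2.98% and 2.08% of the reads of Tumour 1 to 5. It had 8 reads over all Naive libraries and stood 12.96 ± 1.77 higher on the log2 scale (SE; edgeR adjusted p = 8.88e-05). Of the 10 leading loops it was the one with the highest MP share, 0.289 ± 0.0524% (n = 5). Both loops were thus present at percent levels in all 5 tumours and near or below the detection limit in Naive cells.

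Loops with a TRAJ22 end were more uneven. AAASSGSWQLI took 10.0%, 9.35%, 4.10%, 2.48% and 0.848% of the reads of Tumour 1 to 5 and at most 0.00267% of any Naive library, which is 11.47 ± 1.21 on the log2 scale (SE; edgeR adjusted p = 1.90e-05). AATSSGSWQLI, which differs from it in the third residue, took 2.13%, 2.17%, 0.588%, 0.263% and 1.72%, which is 10.21 ± 1.39 on the log2 scale (SE; edgeR adjusted p = 8.81e-05). The 2 loops were both high in Tumour 1 and Tumour 2 but not in the same order across the others.

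The other loops of the 10 were of a few kinds. AASPSNTNKVV (1.48 ± 0.808%) and AASAANTNKVV (1.21 ± 0.700%) share the TRAJ34 end and were listed in all 5 tumours, with log2 fold changes of 11.17 ± 0.80 and 12.67 ± 1.76 (SE; edgeR adjusted p = 1.27e-05 and 9.91e-05). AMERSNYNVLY, with a TRAJ21 end, was listed in all tumours but took 9.47% of Tumour 5 and 0.225% to 2.04% of the others (log2 fold change 11.25 ± 1.90, SE; edgeR adjusted p = 0.000344). AGGKEGKLI, whose joining segment could not be assigned, took 5.01% of Tumour 1, 0.797% of Tumour 3 and 4.83% of Tumour 5 and was not listed in Tumour 2 and Tumour 4. AVRFGGGYKVV, with a TRAJ12 end, took 5.88% of Tumour 1, 1.13% of Tumour 3 and 0.0154% of Tumour 2 and was not listed in the others. No Naive or MP library listed either of these last 2 (edgeR adjusted p = 0.0162 and 0.0217), so that AGGKEGKLI was at least 4234-fold higher in Tumour and AVRFGGGYKVV at least 2795-fold. All 10 calls held in every alternative that tested the loop, 18 for 8 of them and 15 for AGGKEGKLI and AVRFGGGYKVV. Without any 1 of the tumours that held them, AGGKEGKLI and AVRFGGGYKVV failed the count filter. Whether these calls rest on a single tumour was therefore not tested. The fold changes rest on few Naive reads: with possible reading errors folded, an alternative added after the data were seen, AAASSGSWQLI, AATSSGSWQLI and AASATNAYKVI kept 0 of their 58, 35 and 8 Naive reads. Their fitted log2 values were then 18.21, 16.24 and 16.92, which are fits against no reads and not measured folds.

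Among the loops called lower, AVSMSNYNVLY had the largest mean share in Naive cells. It took 2.32%, 1.83%, 2.37%, 1.98% and 1.86% of the reads of Naive 1 to 5. None of the 5 tumours listed it, where 3 reads would be 0.000318% to 0.000478% of a library, and it was at least 5311-fold lower in Tumour (edgeR adjusted p = 2.11e-05). MP cells carried it at 0.0111 ± 0.0118%. AALNNNNAPR (0.904 ± 0.0921%, TRAJ43 end), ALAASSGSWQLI (0.805 ± 0.122%, TRAJ22 end) and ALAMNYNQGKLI (0.732 ± 0.0747%, TRAJ23 end) were likewise listed in no tumour. They were at least 2317-, 2064- and 1877-fold lower (edgeR adjusted p = 1.52e-05, 1.54e-05 and 1.43e-05).

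Other leading Naive loops were listed in 1 or 2 tumours at low level. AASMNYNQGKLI, with the TRAJ23 end, took 1.44 ± 0.236% of Naive reads and 0.00475% of Tumour 2, with no reads in the other tumours (edgeR adjusted p = 0.00230). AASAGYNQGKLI and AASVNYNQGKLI, with the same end, took 0.922 ± 0.105% and 0.802 ± 0.173% of Naive reads. Both were listed in Tumour 2 and Tumour 4 alone, the first at 0.0149% and 0.0203% and the second at 0.0353% and 0.0481% (edgeR adjusted p = 0.0117 and 0.0339). The call of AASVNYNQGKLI was lost with any 1 Naive library left out, or with no count filter, at edgeR adjusted p from 0.0520 to 0.0573, against 0.00204 to 0.0573 over all 18 alternatives. AVSSSNTNKVV (0.682 ± 0.0707% of Naive reads) had 29 reads in Tumour 1 alone, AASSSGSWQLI (0.673 ± 0.0856%) 3 reads in Tumour 5 and AASDTNAYKVI (0.647 ± 0.1004%) 2 reads in Tumour 1 (edgeR adjusted p = 0.00253, 4.52e-05 and 3.38e-05).

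Some loops listed in every Naive library were not called. Of the 5 loops not called that had the highest share in the lower group, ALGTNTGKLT took 0.0625 ± 0.00558% of Naive reads and 0.355% of Tumour 2, with no reads in the other tumours. ALDTNAYKVI took 0.0523 ± 0.0133% of Naive reads, 0.525% of Tumour 3 and 0.00141% of Tumour 2. Without the tumour that held each, the fitted log2 difference turned from 0.18 to -11.74 and from 1.01 to -7.15, and for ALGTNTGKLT the latter value is a fit against no Tumour reads. Both were then called lower, as they were with the library number as a block (edgeR adjusted p = 1.46e-06 and 0.00290 without the tumour, 0.00838 and 0.0369 with the block, and up to 0.963 and 0.753 over the alternatives). AVRDTNAYKVI was the most abundant of the 5 in Naive cells, at 1.24 ± 0.0734%, and took 0.0510 ± 0.0919% of Tumour reads (log2 fold change -4.60 ± 2.19, SE; edgeR adjusted p = 0.0686). It was called lower with TMM scaling, with DESeq2, with the library number as a block and without Tumour 3, and its adjusted p ran from 0.000616 to 0.105 over the alternatives. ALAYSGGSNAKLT and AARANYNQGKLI, given above with the Naive core, had log2 differences of -1.64 ± 2.38 and -1.42 ± 2.20 (SE; edgeR adjusted p = 0.522 and 0.550) and were called lower without Tumour 5 and Tumour 3 (1.25e-05 and 0.00117) and with the block (0.00303 and 0.0113).

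The loops called higher grouped into families. Loops of equal length that differ in 1 residue were linked, and 132 of the 158 (83.5%) had such a link, in 18 families. The share was 86.6% among the 4051 called lower, a far larger set in which a neighbour is easier to find. These shares are therefore not compared, and linkage as such was common in both sets. The families describe loops already chosen for being higher, and their sums are given with no test. The largest, with 22 loops of the pattern A-----TNKVV (TRAJ34; hyphens mark the positions that vary), summed to 7.13%, 9.05%, 12.4%, 11.2% and 4.56% of the reads of Tumour 1 to 5 and to 0.01998 ± 0.00183% in Naive cells. Its 22 loops include AASASNTNKVV, AASPSNTNKVV and AASAANTNKVV, and 10 of them were listed in all 5 tumours. Loops of related sequence thus filled several percent of every tumour.

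The TRAJ30 family of 20 loops, of the pattern AA----AYKVI, summed to 4.16%, 6.74%, 6.34%, 8.26% and 5.59% of the tumours and to 0.00729 ± 0.000812% of Naive reads. MP cells held 0.320% of it, nearly all from AASATNAYKVI. The TRAJ22 family of 16 loops, of the pattern ----SGSWQLI, summed to 17.7%, 17.4%, 6.44%, 3.29% and 3.22% and to 0.0431 ± 0.00759% in Naive cells. Of its Naive reads, AAISSGSWQLI gave the most, at 0.0307%. The TRAJ21 family of 15 loops, of the pattern AM---NYNVLY, summed to 1.37%, 4.51%, 6.72%, 2.19% and 13.8% and to 0.00693 ± 0.00190%. The TRAJ34 and TRAJ30 families were thus the even ones, and the TRAJ22 and TRAJ21 families were led by different tumours.

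The other 6 families had fewer loops. The 5 loops of the pattern --RPPR-GNEKIT (TRAJ48) summed to 6.42 ± 7.42% of Tumour reads, nearly all from AARPPRYGNEKIT, and none of the 5 was listed in Naive or MP cells. The 9 loops led by AASEAASLGKLQ (TRAJ24) summed to 0.842 ± 0.586%, the 7 led by ATMSNYNVLY (TRAJ21, 10 residues) to 1.08 ± 0.687%, and the 7 led by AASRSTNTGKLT (TRAJ27) to 1.05 ± 1.17%. The 7 led by AASSGGNYKPT (TRAJ6) summed to 0.534 ± 0.208% and the 5 led by AASESTNAYKVI (TRAJ30, 12 residues) to 0.650 ± 0.176%. Naive cells held at most 0.00873% of any of these 6.

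Folding possible reading errors made some families smaller. When each loop was folded into a neighbour at least 100 times as abundant in the same library, 28.8% to 69.0% of the distinct Tumour loops and 6.98% to 7.19% of the Naive loops were removed. The members still called higher were then 11 of 22 for TRAJ34, 16 of 20 for TRAJ30, 6 of 16 for TRAJ22, 12 of 15 for TRAJ21 and 1 of 5 for TRAJ48. For the other 5 families, 8 of 9 were still called for TRAJ24, 7 of 7 for the shorter TRAJ21 loops, 6 of 7 for TRAJ27, 7 of 7 for TRAJ6 and 5 of 5 for the longer TRAJ30 loops. Whether the loops removed were errors was not tested.

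**Figure D4:**
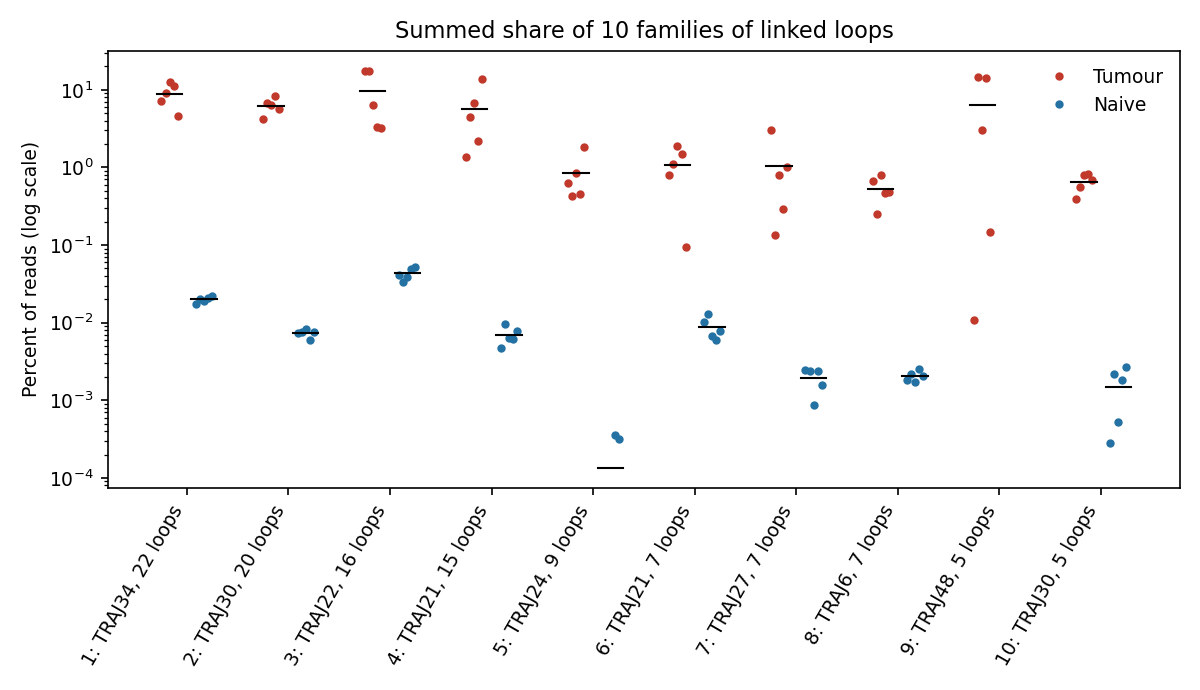
Summed percent of reads (vertical axis, log scale) of the 10 largest families of linked loops called higher, for each Tumour library (red) and Naive library (blue), with the group mean as a bar. Libraries at 0 have no point, which is every Naive library for the TRAJ48 family and 3 of them for the TRAJ24 family, and the Tumour points of each family lie above its Naive points because the loops were chosen for being higher.

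Some Tumour loops lay 1 residue from a loop that was higher in Naive cells. Substitutions are written with the Naive residue, the position counted from 1 at the first residue of the loop as listed, and the Tumour residue. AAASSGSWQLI is S3A of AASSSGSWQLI: the first took 5.36% of Tumour and 0.00187% of Naive reads, and the second 6.36e-05% and 0.673%. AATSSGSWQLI is S3T of the same Naive loop. AASATNAYKVI is D4A of AASDTNAYKVI and E4A of AASETNAYKVI, and took 2.22% of Tumour reads, whereas the 2 acidic Naive loops took 0.647% and 0.258% of Naive reads. AASASNTNKVV is L2A of ALSASNTNKVV, at 0.293% of Naive reads and in no Tumour list.

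Of the 158 loops called higher, 86 (54.4%) had a loop called lower 1 substitution away. The share was 89.0% among the 462 loops not called and 86.6% among the 4051 called lower. For the 4051 this share is linkage within their own set, so it is not compared with the others. Such a neighbour was less frequent for the loops called higher than for the 462 not called. Both sets were defined on these same libraries, and the difference was not tested. In each pair named here the joining end was the same, and 1 residue before it differed.

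Joining segments are ordered along the locus, and successive rearrangements in a thymocyte move from the 5' segments near the variable genes to the 3' segments near the constant gene. A segment was read from the loop's end for 93.9% to 99.7% of Tumour reads and 99.1% to 99.3% of Naive reads. By reads, 1 of 39 segments (2.56%) was higher in Tumour and 13 (33.3%) were lower, at an adjusted exact two-sided permutation p under 0.05. TRAJ22 was the one that was higher, at 23.4%, 20.6%, 7.28%, 5.30% and 4.88% of assigned reads in Tumour 1 to 5 and 3.28 ± 0.0964% in Naive cells (adjusted exact permutation p = 0.0281). All 5 tumours lay above all 5 Naive libraries. Most of these reads were the TRAJ22 family described above, so that the segment and the family are not separate results.

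TRAJ23 showed the largest difference downward. It took 1.38%, 1.35%, 4.22%, 2.03% and 1.73% of assigned reads in Tumour 1 to 5 and 14.6%, 15.1%, 15.9%, 16.7% and 18.1% in Naive 1 to 5. TRAJ43 took 0.886 ± 0.609% of Tumour and 7.61 ± 0.375% of Naive reads, TRAJ31 1.75 ± 1.15% and 4.60 ± 0.806%, TRAJ37 0.621 ± 0.366% and 3.33 ± 0.0541%, and TRAJ32 1.11 ± 0.366% and 2.74 ± 0.144%. None of these 5 overlapped between the groups (adjusted exact permutation p = 0.0281 each). Leading Naive loops such as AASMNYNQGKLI and AALNNNNAPR carry the TRAJ23 and TRAJ43 ends, so these differences again hold the loops named above.

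TRAJ34, TRAJ30, TRAJ21 and TRAJ48, the ends of other Tumour families, did not pass by reads. TRAJ34 took 13.1 ± 3.08% of Tumour and 10.5 ± 1.37% of Naive reads, TRAJ30 10.2 ± 2.48% and 6.71 ± 0.448%, TRAJ21 10.3 ± 6.83% and 4.70 ± 0.364%, and TRAJ48 8.84 ± 6.82% and 3.14 ± 0.0929% (adjusted exact permutation p = 0.210, 0.0688, 0.0942 and 0.250). Naive cells used these ends at several percent too, in other loops. With every distinct loop counted once, 7 segments were higher and 13 lower. The higher ones were then TRAJ21 (9.19 ± 2.67% of Tumour and 3.02 ± 0.0727% of Naive loops), TRAJ30 (10.5 ± 1.53% and 5.16 ± 0.292%), TRAJ22, TRAJ34, TRAJ24, TRAJ11 and TRAJ6. Without the 10 most abundant loops of each library, 7 were higher and 7 lower. Counts by distinct loop, here and below, include possible reading errors of abundant loops. The folding rule given above removed 28.8% to 69.0% of distinct Tumour loops, against 6.98% to 7.19% in Naive. No count by distinct loop was run after folding, so such counts do not fully set abundance aside.

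The counts of segments depended on single libraries. With 1 library left out, the smallest two-sided p is 0.0159, which passes after adjustment over 39 segments only where at least 13 of them reach it. No segment passed in either direction without Tumour 2, Naive 1, Naive 3, Naive 4 or Naive 5, and 5 were higher without Tumour 1, 2 each without Tumour 4 and Tumour 5, and 1 each without Tumour 3 and Naive 2. The differences kept their sign: with 1 library left out, TRAJ23 ran from -14.5 to -13.4 percentage points, TRAJ43 from -6.97 to -6.56 and TRAJ22 from 6.22 to 10.9. TRAJ31 also lost its call with loops under 10 reads left out, without the 10 most abundant loops, and with at least 6 residues matched, at adjusted exact permutation p from 0.0516 to 0.0663.

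**Figure D5:**
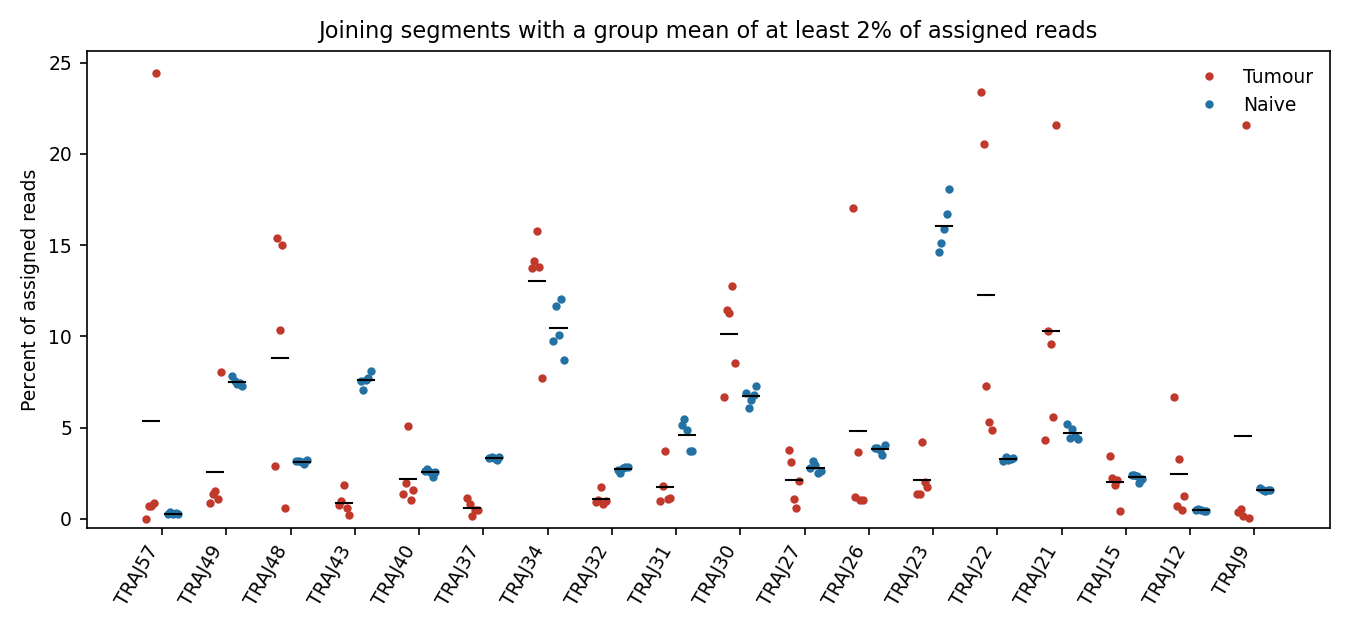
Percent of assigned reads (vertical axis) for the 18 joining segments with a group mean of at least 2%, ordered from 5' to 3' along the horizontal axis, with one point per Tumour library (red) and Naive library (blue) and the group mean as a bar. TRAJ22 lies higher in all 5 tumours and TRAJ23 and TRAJ43 lower, and single tumours stand far out for TRAJ57, TRAJ26 and TRAJ9, the ends of the loops that lead Tumour 5, Tumour 1 and Tumour 4.

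By region, segments at the 3' end (TRAJ21 to TRAJ1) took 19.6%, 17.2%, 19.7%, 35.1% and 26.6% of assigned reads in Tumour 1 to 5 and 13.8%, 13.1%, 13.3%, 12.4% and 12.2% in Naive 1 to 5. The groups did not overlap, and the difference of 10.7 percentage points passed the test (adjusted exact two-sided permutation p = 0.0238) and kept its call in all alternatives run. The 5' segments (TRAJ61 to TRAJ42) took 21.3 ± 11.4% of Tumour and 25.9 ± 0.573% of Naive reads, with Tumour 5 at 37.9%, and did not pass (adjusted exact permutation p = 0.524). Their difference was -9.25 percentage points by distinct loop and -8.76 without Tumour 5, and both passed (adjusted exact permutation p = 0.0119 and 0.0238, against 0.524 with all libraries by reads). The middle segments took 55.1 ± 15.2% and 61.2 ± 0.811% (adjusted exact permutation p = 0.476), and their difference turned to 3.10 points higher in Tumour by distinct loop.

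The first residues of a loop come mostly from the variable segment, which the files do not name. Of 11 first pairs of residues tested, 1 (9.09%) was higher and 4 (36.4%) were lower in Tumour. Loops that begin with AA took 36.6%, 56.6%, 38.9%, 45.4% and 48.0% of the reads of Tumour 1 to 5 and 26.5%, 27.2%, 28.5%, 32.1% and 33.3% of Naive 1 to 5. Loops that begin with AL took 9.74%, 10.9%, 12.1%, 10.9% and 10.9% of the tumours and 30.2 ± 1.68% of Naive reads. In contrast to the leading loops, the AL share was thus nearly equal in all tumours. AI fell to 1.54 ± 0.974% from 6.43 ± 0.579%, AF to 0.385 ± 0.496% from 2.80 ± 0.284% and AP to 1.64 ± 0.313% from 2.11 ± 0.1003%. All 5 pairs had an adjusted exact permutation p of 0.0175 and did not overlap between the groups.

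The AA and AL differences kept their calls without the 10 most abundant loops and by distinct loop, at smaller sizes. Possible reading errors were not folded in these counts. Without the 10 most abundant loops of each library, the AA difference was 7.62 percentage points, against 15.5 with all loops, and the AL difference was -15.3, against -19.3 (adjusted exact permutation p = 0.0437 and 0.0175). By distinct loop, AA took 33.9 ± 1.98% of Tumour and 24.7 ± 1.66% of Naive loops, and AL 18.6 ± 3.18% and 27.6 ± 0.685% (adjusted exact permutation p = 0.0218 each). AP turned to 0.0759 percentage points higher in Tumour by distinct loop and 0.774 higher without the 10 most abundant loops, with no call in either (adjusted exact permutation p = 0.669 and 0.164), and lost its call with loops under 10 reads left out (0.0698). Among the loops called by edgeR, 94 of the 158 higher began with AA (59.5%), against 28.8% of all 4671 tested, and 22 with AM (13.9%, against 8.20%). Only 855 of the 4671 were listed in any tumour, so that this background is largely Naive loops. These shares describe loops chosen on the same libraries.

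By reads, the Tumour loops were slightly longer and more positively charged. These differences were not kept by distinct loop or without the 10 most abundant loops of each library. Read-weighted length was 11.4 ± 0.113 residues in Tumour and 11.2 ± 0.0359 in Naive libraries, a difference of 0.211, and net charge, lysine and arginine against aspartate and glutamate, was 0.702 ± 0.125 and 0.536 ± 0.0155, which is 0.166 higher in Tumour (two-sided exact permutation tests, adjusted p = 0.0159 each). By distinct loop the length difference turned to -0.214 residues (adjusted exact permutation p = 0.0159), and charge differed by 0.000945 (0.984). Without the 10 most abundant loops of each library the differences were 0.0397 residues and -0.0334 charges (adjusted exact permutation p = 0.497 and 0.5). Both differences by read thus depended on the 10 most abundant loops of each library.

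The lengths themselves were distributed as follows. Loops of 11 residues, the length of the TRAJ34, TRAJ30, TRAJ22 and TRAJ21 families, took 45.8 ± 7.22% of Tumour and 31.8 ± 0.710% of Naive reads. Loops of 10 residues took 8.49 ± 2.58% and 21.2 ± 0.807%. In neither length did a Tumour library reach the Naive range. Of the 158 loops called higher, 102 (64.6%) had 11 residues, against 27.5% of the 4051 called lower. Both sets were chosen on these same libraries.

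Loops with an internal cysteine, and loops with hydrophobic residues at both middle positions, did not differ past the threshold by reads. A cysteine stood in 0.668 ± 0.359% of Tumour and 0.508 ± 0.0517% of Naive reads, and a hydrophobic pair in 1.53 ± 1.81% and 0.197 ± 0.00975% (adjusted exact permutation p = 0.317 and 0.169). By distinct loop, cysteine was 1.83 percentage points higher in Tumour (adjusted exact permutation p = 0.0159), and it passed by reads without Tumour 4 (0.278 points, adjusted exact permutation p = 0.0423). The count by distinct loop includes possible reading errors, which were not folded. The hydrophobic pair stood in 4.02% of Tumour 1 reads and 0.0111% of Tumour 5 reads and passed without Tumour 5 (1.71 points, adjusted exact permutation p = 0.0212).

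Close neighbours were also counted within each library. Of the loops at 0.1% of reads or more, 52.5%, 51.6%, 47.7%, 41.1% and 38.2% had another such loop 1 substitution away in Tumour 1 to 5, and 56.4%, 57.0%, 50.7%, 57.9% and 56.1% in Naive 1 to 5. The difference, Tumour minus Naive, was -9.43 percentage points (exact two-sided permutation p = 0.0238), with Naive 3 within the Tumour range. Over loops at 0.05% of reads or more it was -22.5 points (exact two-sided permutation p = 0.00794). Families of like loops were thus no more frequent among the abundant loops of a tumour than among those of Naive cells.

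Invariant alpha chains of unconventional T cells that could enter a CD8 gate were rare. The invariant loop of iNKT cells, VVGDRGSALGRLH, had no reads in the 5 tumours and 0 to 2 in a Naive library, and loops holding its core had 197 reads in Tumour 1, none in the other tumours and 15 to 53 in Naive libraries. The loop form of MAIT cells, AVxDSNYQLI, had 60 reads in Tumour 2, none in the other tumours, and 152, 107, 133, 81 and 100 reads in Naive 1 to 5 (exact two-sided permutation p = 0.00794 for its share of reads). These chains were matched by the peptide alone, without the variable segment.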

How the data were processed

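The deposited files are the authors' counts of reads per alpha-chain CDR3 peptide, 1 list per library, not normalized. RNA was taken with Trizol and libraries were made by multiplex RT-PCR (arm-PCR) at iRepertoire, per the labels' protocols. How reads were aligned, how CDR3s were called and whether errors were filtered or molecules tagged is not given in the sources used here. A share is reads over the library total, and precision is limited by the 547665 to 943699 reads per library.

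edgeR 4.0.16 in R 4.3.3 was fitted to the counts with robust quasi-likelihood, total reads as library size and no TMM, for CDR3s that reached 10 reads in 3 or more of the 10 libraries (Benjamini-Hochberg, threshold 0.05). The SE of an edgeR log2 value was derived from the test, as the size of the value over the square root of its F statistic. DESeq2 1.42.0 was an alternative. The steps were tested on simulated data. Other measures used exact permutation tests over libraries (Python 3.11.15, scipy 1.17.1), with adjustment over the 6 measures of diversity, 39 segments, 3 regions, 11 first pairs or 4 features. A first pair was tested where it took 1% of reads in either group. Joining segments were read from the longest unique end of at least 4 residues. No reference sequence of these ends was used, and they rest on general knowledge. All 39 segments used stand in RefSeq's GRCm38.p6 gene table, which gave their order, and 43 were listed at first. The middle positions are the residues on either side of the loop's midpoint, or the middle residue and the one before it in a loop of odd length.

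Named are the 10 CDR3s called higher and the 10 called lower with the highest mean share, the 5 not called with the highest lower group mean, each library's leader, segments and first pairs past the threshold (the 5 with the largest difference each way where over 10 passed) and the 10 largest families. Other loops named were chosen after their values were seen. The groups, lists and tests were chosen with earlier results of these data known. Tumour and Naive libraries share the numbers 1 to 5 but come from different mice.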

Additional observations from a re-analysis of the deposited data

Results flagged for a closer look

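Single libraries stood apart from the other 4 of their group in 11 of 81 groups of values checked (13.6%), by a gap over range above Dixon's critical value. Chance alone does so in about 1 in 20 groups of independent normal values. The groups here include uneven shares and loops chosen on these data, so the 2 rates are not compared. Tumour 3 accounted for 4 of them: its inverse Simpson index was 69.0, its TRAJ23 share 4.22%, its TRAJ32 share 1.75% and its share of AVRDTNAYKVI 0.212% of reads, each the highest of the tumours. In Tumour 5, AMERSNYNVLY took 9.47% of reads, and in Tumour 1, AVRFGGGYKVV took 5.88%, where the other tumours held less. Loops beginning with AF took 1.24% of Tumour 2 reads. Among Naive libraries, the 5' segments took 24.9% of assigned reads in Naive 2, a hydrophobic residue stood at both middle positions in 0.181% of Naive 4 reads, and 50.7% of the abundant loops of Naive 3 had a close neighbour, each the lowest of its group. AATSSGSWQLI was not listed in Naive 2 (0%), while the other Naive libraries listed it.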

How the results depend on the processing

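No call of diversity or of similarity within and between groups changed under any alternative run. Calls per CDR3 kept within 1.5 times of 158 higher and 4051 lower with TMM, DESeq2, thinned counts, a fold of at least 2, folded reading errors (an alternative chosen after seeing the data: 120 and 3823) and each library left out (106 to 146 and 3182 to 4182). At least 50 reads gave 1069 lower and no count filter 391 higher and 21912 lower, as fewer or more CDR3s were tested. With the library number as a replicate block, 125 were higher and 4262 lower. Tumour and Naive libraries of one number come from different mice, their deviations correlated at -0.00686 to 0.0214, and 2 of 10 libraries correlated best with their own number. Under the block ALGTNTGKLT and ALDTNAYKVI turned to fitted log2 differences of -10.51 and -8.43, and with 1 library left out they ran from -11.74 (without Tumour 2) to 0.50 and from -7.15 (without Tumour 3) to 1.33.

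By distinct CDR3, 7 segments were higher, the 5' difference was -9.25 and the middle difference 3.10 percentage points, length differed by -0.214, charge by 0.000945, cysteine by 1.83 and AP by 0.0759. Without the 10 most abundant CDR3s, 7 segments were higher and 7 lower, 3 first pairs were higher, the 5' difference was -13.2, length 0.0397, charge -0.0334 and AP 0.774. With CDR3s under 10 reads left out, 7 segments were lower, and the shares listed in the other group were 25.9% of distinct CDR3s and 35.9% of reads for Tumour and 7.36% and 24.4% for Naive. With 1 library left out, 0 to 5 segments were higher and 0 to 15 lower, 1 to 2 first pairs were higher, the 5' difference ran from -8.76 (without Tumour 5, passing) to -0.739, cysteine from 0.0401 to 0.278 (without Tumour 4, passing) and the hydrophobic pair from 0.703 to 1.71 (without Tumour 5, passing). The difference in loops with a close neighbour was -22.5 points at 0.05% of reads or more. The cause of these changes was not tested. Reads without molecular identifiers limit what depth can show.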
